A study of Papio anubis with 12 samples.

Results

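The baseline microRNA (miRNA) profile described here is that of frontal cortex from the 6 control fetuses of a baboon (Papio anubis) study that holds 12 fetuses in all. The members were chosen by label: every library of a fetus whose mother was fed ad libitum on monkey diet biscuits was taken, and the libraries of fetuses from nutrient restricted mothers were not analysed here. All 6 control fetuses were taken on day 165 of gestation, carried no transgene or drug treatment that the labels name, and gave 1 small RNA library each from total RNA of the tissue. Fetuses 1, 2 and 3 were female and fetuses 4, 5 and 6 were male. Of 1921 mature miRNA names in the table, 693 had at least 1 read in a control fetus, 428 had a read in all 6, and 1228 had none.

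miRNAs are short RNAs that guide Argonaute proteins to messenger RNAs, whose translation and stability they lower. Each is cut from a hairpin by Drosha and then Dicer, which leaves a duplex of a strand from the 5′ side (5p) and a strand from the 3′ side (3p); one strand usually stays in Argonaute and the other is lost. In the developing cortex miR-9 is known from neural progenitors and neurons, miR-124 and miR-128 from neurons, and let-7 from the passage from progenitor to differentiated cell.

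The libraries held 513029 to 1898763 counted reads, so that 1 read was worth 0.527 to 1.95 reads per 1000000 counted reads (RPM). These totals count the reads of a name again at each of its precursor entries. With 1 entry kept per name the libraries held 299721 (fetus 6) to 1079369 (fetus 3) reads, and shares of reads below are of these. Fetus 6 was the shallowest library, with a single read at 1.95 RPM, and its log2 levels correlated least with those of the other fetuses. Across the 323 names with a mean of at least 10 RPM, the pairwise Pearson correlation of log2 levels lay between 0.958 and 0.993, and the 5 lowest of the 15 pairs all held fetus 6. These correlations are across miRNAs, which are not independent replicates, and the part of the low depth of fetus 6 in them was not tested. By the share of reads in the 10 most abundant names, fetus 6 (58.0%) lay within the range of the others and fetus 3 was highest (64.7%). A name had a read in 482 cases in fetus 6 and in 524 to 562 cases in the other fetuses, but at the depth of fetus 6 the expected number was 471 to 487 in every library, so the number of names seen followed the depth. Leaving out fetus 6 moved the spread of some named miRNAs and hairpins by over 1.5 times. Both values are given for several of them but not for all, so a spread with a single value may still rest on fetus 6.

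The same 3 names led the profile in every fetus: miR-9-5p (MIMAT0000441), miR-26a-5p (MIMAT0000082), of a broadly expressed family, and miR-181a-5p (MIMAT0000256), abundant in brain and in lymphocytes. miR-9-5p ranged from 64302 RPM in fetus 3 to 88752 RPM in fetus 2, with a median of 74549 RPM and a mean of 75172 ± 8062 RPM (SD, n = 6). miR-181a-5p stood at 47458 RPM in fetus 3 and at 62353 to 83123 RPM in the others, with a mean of 71285 ± 13912 RPM. miR-26a-5p was the most uneven of these names. It measured 39670, 46669, 148140, 62659, 77613 and 76025 RPM in fetuses 1 to 6, so that fetus 3, a female, lay far above the other 5, among which the females 1 and 2 lay below all 3 males. RPM are parts of a fixed total, so 148140 RPM of miR-26a-5p in fetus 3 leaves less for its other names. How far this lowered miR-9-5p and miR-181a-5p there was not tested. The name in first place was miR-181a-5p in fetuses 1 and 5, miR-9-5p in fetuses 2 and 4, and miR-26a-5p in fetuses 3 and 6, where it took 26.1% and 13.0% of the reads. The lowest of these leading names was 1.43 to 2.77 times as high as the highest name outside them.

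Below them came miR-143-3p (MIMAT0000435), known from smooth muscle, at 25632 ± 4069 RPM and between 19256 and 29891 RPM in single fetuses. Next were the broadly expressed miR-191-5p at 18545 ± 5286 RPM, let-7f-5p at 16709 ± 2868 RPM and let-7a-5p at 16526 ± 2175 RPM (SD, n = 6). They were followed by miR-128 at 16151 ± 4099 RPM, miR-127-3p of the imprinted DLK1-DIO3 region at 15314 ± 2599 RPM, and miR-22-3p at 14911 ± 3320 RPM. These names could not be put in one order: among the 20 most abundant, only 3 of the 19 steps from one name to the next exceeded the larger SD of the pair, and 2 steps had the same order in all 6 fetuses. The steps beyond the SD were those from miR-181a-5p to miR-143-3p, from miR-143-3p to miR-191-5p, and from miR-22-3p to miR-181c-5p. Even so, 7 names were in the top 10 of every fetus and 13 were in the top 10 of at least 1.

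**Figure D1:**
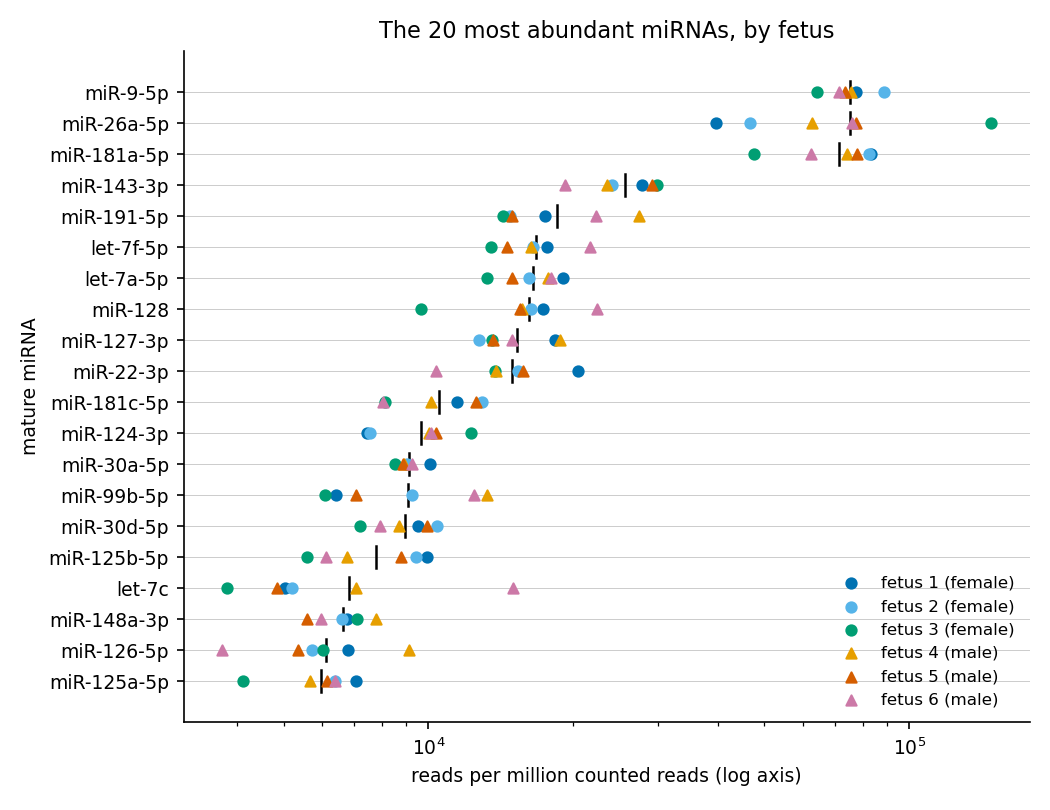
Level of the 20 most abundant miRNAs in RPM (log axis); each point is 1 control fetus, circles female and triangles male, and the black bar is the mean of the 6. miR-9-5p, miR-26a-5p and miR-181a-5p lie apart to the right in every fetus, with fetus 3 at 148140 RPM for miR-26a-5p and fetus 6 at 15015 RPM for let-7c.

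The rest of the 20 most abundant lay between 5966 and 10532 RPM on average. They were miR-181c-5p (10532 ± 2144 RPM), miR-124-3p (9634 ± 1839 RPM), miR-30a-5p (9103 ± 533 RPM), miR-99b-5p (9077 ± 3117 RPM), miR-30d-5p (8947 ± 1225 RPM) and miR-125b-5p (7764 ± 1840 RPM; SD, n = 6). The last 4 were let-7c (6830 ± 4146 RPM), miR-148a-3p (6645 ± 792 RPM), miR-126-5p (6126 ± 1781 RPM), which is processed from the endothelial gene EGFL7 in human and mouse, and miR-125a-5p (5966 ± 1017 RPM). miR-124-3p was at 7463, 7561, 12272, 10015, 10376 and 10116 RPM in fetuses 1 to 6, so that the 2 lowest fetuses were both female and the highest was female as well. Levels of different miRNAs are on the RPM scale, with no correction for how well each sequence is ligated and amplified, which these data do not measure.

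The reads were concentrated in few names. The 10 names of highest mean level held 59.7 ± 2.62% of mature miRNA reads (SD, n = 6), from 57.6% in fetus 1 to 64.7% in fetus 3, and the first 50 held 89.6 ± 0.568%. With names ordered within each fetus, between 4 names (fetus 3) and 8 names (fetus 1) were enough for 50% of the reads, 48 to 53 names for 90%, and 169 to 176 for 99%. The effective number of names, the exponential of the Shannon entropy, was 30.4 in fetus 3 and 38.2 to 43.0 in the other 5. By level, 11 names at a mean of 10000 RPM or more took 61.5 ± 2.52% of the reads, 59 names between 1000 and 10000 RPM took 32.4 ± 2.27%, and 90 names between 100 and 1000 RPM took 4.84 ± 0.235%. The remaining 533 names with a read together formed the tail, of which the 163 names between 10 and 100 RPM held 1.10 ± 0.0673%. These shares count the entry with most reads once for each name; if the entries of all precursors of a name were added, which counts the same reads again, the 10 most abundant would hold 72.2 ± 2.31%.

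**Figure D2:**
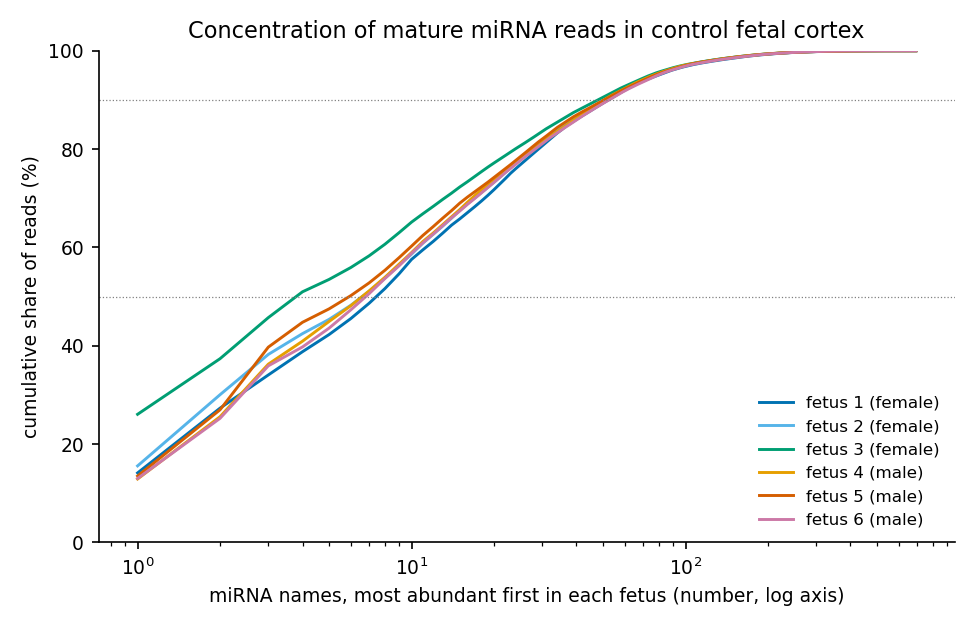
Cumulative share of mature miRNA reads (%) against the number of names, ordered from the most abundant in each fetus (log axis); each line is 1 control fetus and the dotted lines mark 50% and 90%. Fetus 3 reaches 50% with 4 names and the others with 6 to 8, and all lines meet 90% between 48 and 53 names.

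Grouped by name number, with letters and arms pooled, 10 families held 71.6 ± 1.43% of reads (SD, n = 6). The miR-181 family came first at 15.6 ± 2.93%, followed by miR-26 at 13.2 ± 6.92%, miR-9 at 13.2 ± 1.44%, let-7 at 9.40 ± 1.77% and miR-30 at 4.50 ± 0.346%. The miR-26 family ranged from 6.97% to 26.3% between fetuses, and to no more than 13.7% without fetus 3, while miR-30, a broadly expressed family of 11 detected names, stayed between 4.08% and 4.90%. Near-identical members of one family, such as those of let-7, can draw each other's reads, so the family total is firmer than its split.

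Lists of miRNAs known from given cell types were used to describe the tissue. They were chosen with earlier results of these data known, so they are no independent check of it. Over all 1921 names, 693 had a read in a control fetus and 1228 had none. Of the 20 names on the neuron list all had reads, 16 at a mean of at least 10 RPM. Together the 20 names took 16.6% (fetus 3) to 21.3% (fetus 2) of reads. In every fetus most of this share was miR-9-5p, which held 11.3% of reads in fetus 3 and 15.6% in fetus 2. Since miR-9 is known from neural progenitors as well as neurons, the share of the list is not a share of neurons alone. That list had a median spread (SD over mean) of 24.7% against 23.1% for all 323 names at that level. Besides miR-9-5p and miR-128 it held miR-124-3p, and miR-7-5p was at 4147 RPM in fetus 1 and 1738 to 2491 RPM in the others. The DLK1-DIO3 region, an imprinted locus whose miRNAs are abundant in brain, had 70 of 74 names with reads, and these took 4.89 ± 0.658% of reads, led by miR-127-3p and miR-410 (3336 ± 802 RPM). Of the activity-regulated miRNAs, which neuronal firing induces through CREB, miR-132-3p was at 1108 ± 333 RPM and miR-212-3p at 133 ± 35.5 RPM. The proliferation-linked miR-17-92 family and its paralogs took 0.722 ± 0.126% of reads, with miR-92a-3p (1941 ± 517 RPM) and miR-93-5p (648 ± 141 RPM) ahead. The oligodendrocyte list, led by miR-338-3p at 276 ± 50.8 RPM, held 0.0558 ± 0.00884%, and the miR-29 family, which rises with brain maturation in mouse, held 0.0753 ± 0.0192%, led by miR-29a-3p (238 ± 67.1 RPM) and miR-29c-3p (140 ± 23.9 RPM).

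Markers of other cells were present to unequal degrees. The vessel list held 5.70 ± 0.853% of reads (SD, n = 6), nearly all from miR-143-3p and miR-126-5p. The erythroid list held 0.524 ± 0.0932%, with miR-486-5p at 2742 ± 587 RPM and miR-451a at 244 ± 81.5 RPM. The leukocyte and microglia list was the steadiest of all in its total, between 0.0842% and 0.0943%, with miR-146a-5p at 282 ± 33.1 RPM and miR-142-5p at 114 ± 27.8 RPM. Striated muscle miRNAs were near the bottom, miR-1 at 67.9 ± 12.5 RPM and miR-133a at 45.8 ± 11.8 RPM. Liver miR-122-5p did not exceed 9.75 RPM in any fetus, miR-203 and miR-200b-3p of epithelia averaged 6.03 and 1.93 RPM, and 53 of 57 names of the placental C19MC cluster had no read. The other 4 C19MC names, among them miR-524-3p, reached at most 1.19 RPM, which is a single read. In bulk tissue, fewer cells of a type and less RNA per cell cannot be told apart.

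**Figure D3:**
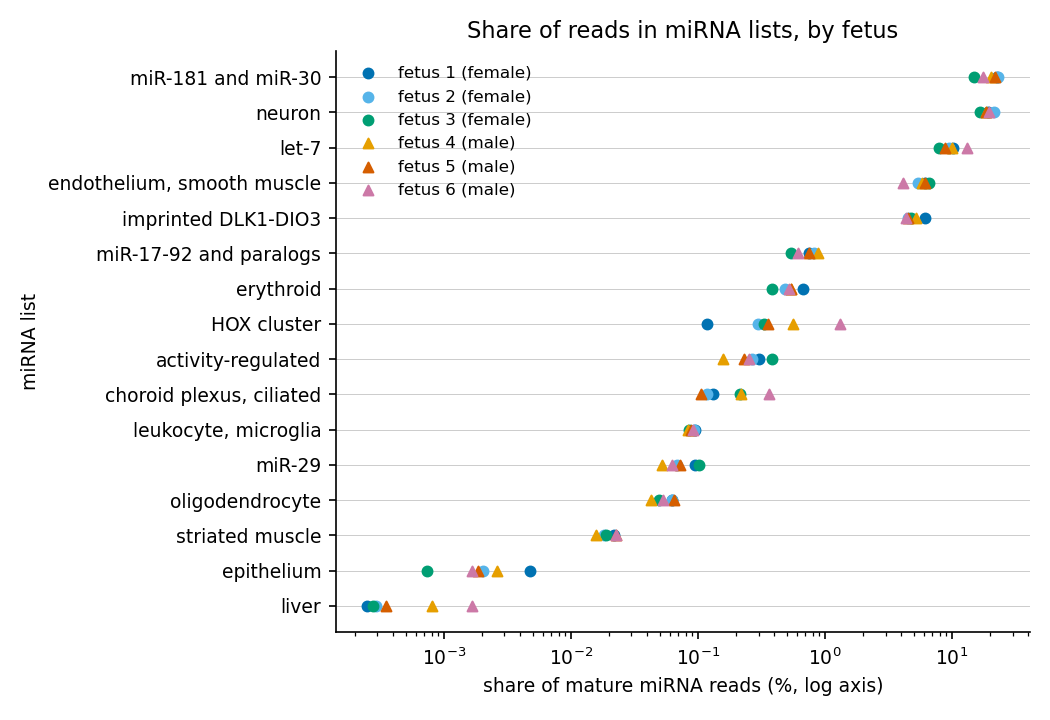
Share of mature miRNA reads (%, log axis) held by each miRNA list; each point is 1 control fetus, circles female and triangles male. The neuron list, mostly miR-9-5p, lies between 16.6% and 21.3% in all fetuses. The HOX cluster list runs from 0.119% in fetus 1 to 1.32% in fetus 6. The C19MC list is left out because 3 fetuses had 0 reads.

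miRNAs of the HOX clusters, which are known from hindbrain, spinal cord and trunk tissues rather than from forebrain, were the most uneven list with a member above 10 RPM: the highest share was 11.1 times the lowest, against 3.44 for choroid plexus and ciliated cells and at most 2.41 for the rest of the lists with such a member. Of the 8 names on the HOX list, 4 had no read in any fetus and only 2, miR-10b-5p and miR-10a-5p, reached a mean of 10 RPM. The range of the list is thus that of these 2 names. miR-10b-5p (MIMAT0000254) was at 688, 1681, 1809, 2991, 2006 and 6908 RPM in fetuses 1 to 6, and miR-10a-5p (MIMAT0000253) at 11.0, 19.9, 77.4, 286, 36.1 and 821 RPM. Both were highest in fetus 6, next in fetus 4 and lowest in fetus 1, with a highest over lowest level of 10.04 for miR-10b-5p and 74.6 for miR-10a-5p. miR-204-5p, which lies in an intron of TRPM3 in human and is strong in choroid plexus, was also highest in fetus 6 at 2092 RPM and next in fetus 4 at 1248 RPM, against 592 to 1211 RPM in the other 4. The related miR-211-5p was at 19.5 RPM in fetus 6 and at 1.34 to 11.1 RPM in the others. The list of choroid plexus and ciliated cell miRNAs took 0.363% of reads in fetus 6 and 0.106% to 0.217% in the rest. Of its 9 names only 1, miR-204-5p, had a mean of at least 10 RPM, so the share is mainly that name. miR-34c-5p, at 9.85 ± 4.04 RPM, was highest in a female and so not in fetus 6. Without fetus 6 the HOX list ran from 0.119% to 0.559%, and the CV (SD over mean) of miR-204-5p was 35.3% instead of 51.8%. Whether tissue from outside the frontal cortex had a part in these levels was not tested.

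The spread between fetuses was beyond counting error for most names. Over the 323 names with a mean of at least 10 RPM the median SD over mean (coefficient of variation, CV) was 23.1%, with quartiles of 17.2% and 31.9%, while counting alone would give a median of 9.72%. The observed CV was above the counting CV in 296 of the 323. It was below 20% in 124 names and above 50% in 25, and the highest fetus stood at least 2-fold above the lowest in 130. The median CV was 19.5%, 19.8% and 19.6% in the classes at 10000 or more, 1000 to 10000 and 100 to 1000 RPM, so it hardly fell with level over this range, and it was 27.6% between 10 and 100 RPM and 54.9% between 1 and 10 RPM, where counting error is larger. Without fetus 6 the median CV was 20.8%.

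The 160 names with a mean of at least 100 RPM had a median CV of 19.7%. The least variable were miR-103a-3p, an intronic miRNA of pantothenate kinase genes linked to lipid and insulin handling, with 5139 ± 271 RPM (CV 5.27%), and the widely expressed miR-21-5p with 1090 ± 61.3 RPM (CV 5.63%). Then came miR-30a-5p at a CV of 5.85%, miR-139-5p at 667 ± 42.4 RPM (6.35%), miR-30c-5p at 2373 ± 171 RPM (7.21%), the neuronal miR-153 at 1614 ± 134 RPM (8.31%), miR-744-5p (8.33%) and miR-873-5p (8.33%). For miR-744-5p and miR-873-5p counting alone gives 6.61% and 7.15%. miR-103a-3p thus lay between 4769 and 5441 RPM in all 6 fetuses. Some of these low values depended on the scaling or on 1 fetus: with median-ratio scaling the CV was 2.17% for miR-30a-5p and 11.0% for miR-139-5p, without fetus 1 it was 2.93% for miR-30a-5p, and without fetus 5 it was 4.31% for miR-873-5p.

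The most variable names at that level were miR-10a-5p (CV 152%) and miR-10b-5p (82.0%), followed by let-7c (60.7%), miR-383 (54.3%), miR-148b-3p (54.0%), miR-204-5p (51.8%), miR-26a-5p (51.8%) and miR-331-3p (42.4%). In 6 of these 8 fetus 6 was the highest. let-7c, which shares a human transcript with miR-99a, was at 5036, 5209, 3804, 7061, 4853 and 15015 RPM in fetuses 1 to 6, and miR-148b-3p at 2824 RPM in fetus 6 against 942 to 1343 RPM in the others. miR-383 behaved differently: fetuses 1, 2 and 5 held 270, 250 and 260 RPM and fetuses 3, 4 and 6 held 96.4, 76.1 and 91.6 RPM, in levels that left a gap between both sets of fetuses. Without fetus 6 the CV fell to 22.7% for let-7c, 16.1% for miR-148b-3p, 20.9% for miR-331-3p and 44.8% for miR-10b-5p, while that of miR-10a-5p stayed at 133%. Without fetus 3 the CV of miR-26a-5p was 28.2%.

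**Figure D4:**
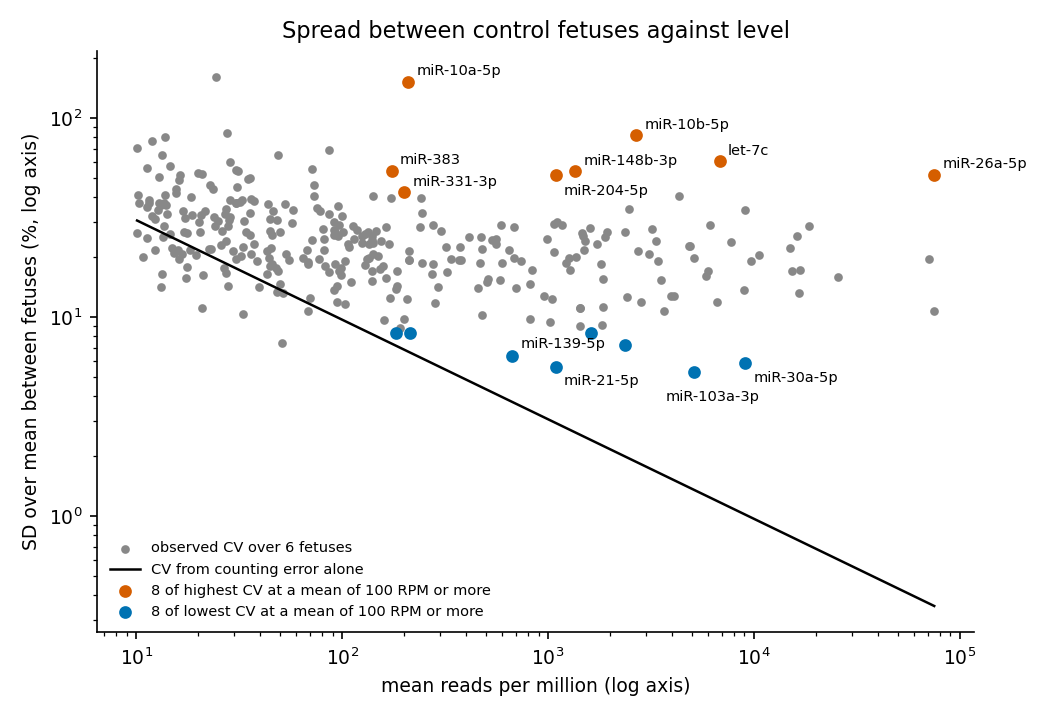
SD over mean between the 6 control fetuses (%, log axis) against mean level (RPM, log axis) for the 323 miRNAs at a mean of at least 10 RPM; the black line is the CV that counting error alone gives, and coloured points are the 8 most and 8 least variable names at 100 RPM or more. Most points lie above the line, from miR-103a-3p at 5.27% to miR-10a-5p at 152% among the coloured ones.

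No single fetus was extreme for most names. Fetus 1 was the highest for 99 of the 323 names and fetus 6 for 79, while fetus 3 was the lowest for 100. The median log2 level of a name relative to the median fetus was 0.10 in fetus 1, -0.10 in fetus 3 and between -0.01 and 0.02 in the others, so a general shift of RPM was small and opposite in fetuses 1 and 3. Median-ratio scaling factors were 0.13 in fetus 1 and -0.14 in fetus 3 on the log2 scale. In fetus 3 miR-26a-5p took 26.1% of the reads, which leaves less RPM for other names. Its part in the 100 lowest values was not tested. A level whose gap to the next fetus exceeded 0.625 of the whole range was found on the high side in fetus 6 for 18 of the 323 names, and in each other fetus for 3 or fewer. On the low side the count was 2 or fewer in each fetus. Chance gives such a gap in about 1 in 20 names over all fetuses and both sides together, so that rate is not the one for fetus 6 on the high side alone. The part of the low depth of fetus 6 in its 18 was not tested. Apart from those above, the names of fetus 6 included the neuronal miR-137, at 1074 RPM against 571 to 642 RPM, and miR-138-5p, at 1524 RPM against 922 to 1080 RPM, both chosen after their values were seen, as was miR-7-5p.

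Arm use was asked next: how unequally the reads of a hairpin fall on its 5p and 3p arms. The arms differ in sequence, and how well each is ligated and amplified was not measured. Such a difference would be shared by all 6 fetuses, so the test below cannot tell it apart from the choice of strand. Of 222 hairpins with a read from both arms, 87 had both arms at a mean of at least 10 RPM, and 90 others had one arm above and one below that level. Along the limit, miR-431 (9.29 RPM of 5p) and miR-93 (9.60 RPM of 3p) fell just outside and miR-101 (10.1 RPM of 5p) and miR-125a (10.3 RPM of 3p) just inside. Because of this limit some of the most one-sided hairpins lie outside the 87. For miR-191, 3p averaged 4.26 RPM in females and 2.48 RPM in males, beside 18545 RPM of 5p over all 6 fetuses. For miR-143, 5p averaged 4.31 RPM in females and 3.42 RPM in males, beside 25632 RPM of 3p. The test was limma on the log2 ratio of 5p to 3p, computed on RPM + 1 in each fetus, with Benjamini-Hochberg adjustment over the 87. The 5p arm was higher in 51 hairpins (58.6% of those tested) and the 3p arm in 35 (40.2%), at an adjusted p of at most 0.0195, which left 1. In 84 of the 87 the same arm was higher in all 6 fetuses, 5p in 50 and 3p in 34. Since nearly all hairpins passed, the comparison between them rests on the size of the ratio. The median size was 3.30 on the log2 scale, 43 hairpins were past 10-fold, 19 past 100-fold, and 8 were under 2-fold.

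The minor arms of these hairpins held 3.65 ± 0.0633% of their reads (SD, n = 6), between 3.56% and 3.71% in single fetuses. Over all names, those ending in 5p took 70.5 ± 1.49% of reads, those ending in 3p 21.9 ± 1.57%, and names with no arm in the table, such as miR-128 and let-7c, 7.63 ± 1.39%; the last could not enter the arm test.

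Among the 87 hairpins the largest excess of 5p was in let-7f-1, with 16709 ± 2868 RPM of 5p and 14.6 ± 3.80 RPM of 3p, a log2 ratio of 10.08 ± 0.15 (SE, n = 6, limma adjusted p = 5.2e-15). It was followed by miR-125a (9.08), miR-181a-2 (8.96), let-7f-2 (8.95), let-7g (8.21), miR-181b (8.0), let-7i (7.69) and miR-30d (7.66). The 5p arm was higher in 6 of 6 fetuses in each of these 8. The 5p reads of let-7f, miR-181a and miR-181b can come from more than 1 hairpin while each of their 3p names is listed with 1, so the ratios of let-7f-1, let-7f-2, miR-181a-2 and miR-181b are upper values for any single hairpin. let-7 and miR-125a are regulators of developmental timing, and their 5p strands are the known guides.

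Among the 87 hairpins the largest excess of 3p was in miR-22, with 18.7 ± 6.08 RPM of 5p and 14911 ± 3320 RPM of 3p, a log2 ratio of -9.59 ± 0.18 (SE, n = 6, limma adjusted p = 1.9e-14). Then came miR-101 (-8.55), the neuronal miR-124 (-7.65), the imprinted miR-127 (-7.36), miR-148a (-7.04), miR-409 (-5.84), miR-342 (-5.77) and miR-24-2 (-5.24). In each of these 8 the 3p arm was higher in 6 of 6 fetuses. The 3p reads of miR-101 and miR-24 can likewise come from more than 1 hairpin, so these 3p excesses are upper values too. The abundant neural pair thus lay on opposite sides, miR-9 with 98.6 ± 0.138% of its reads on 5p and miR-124 with 0.517 ± 0.185%.

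**Figure D5:**
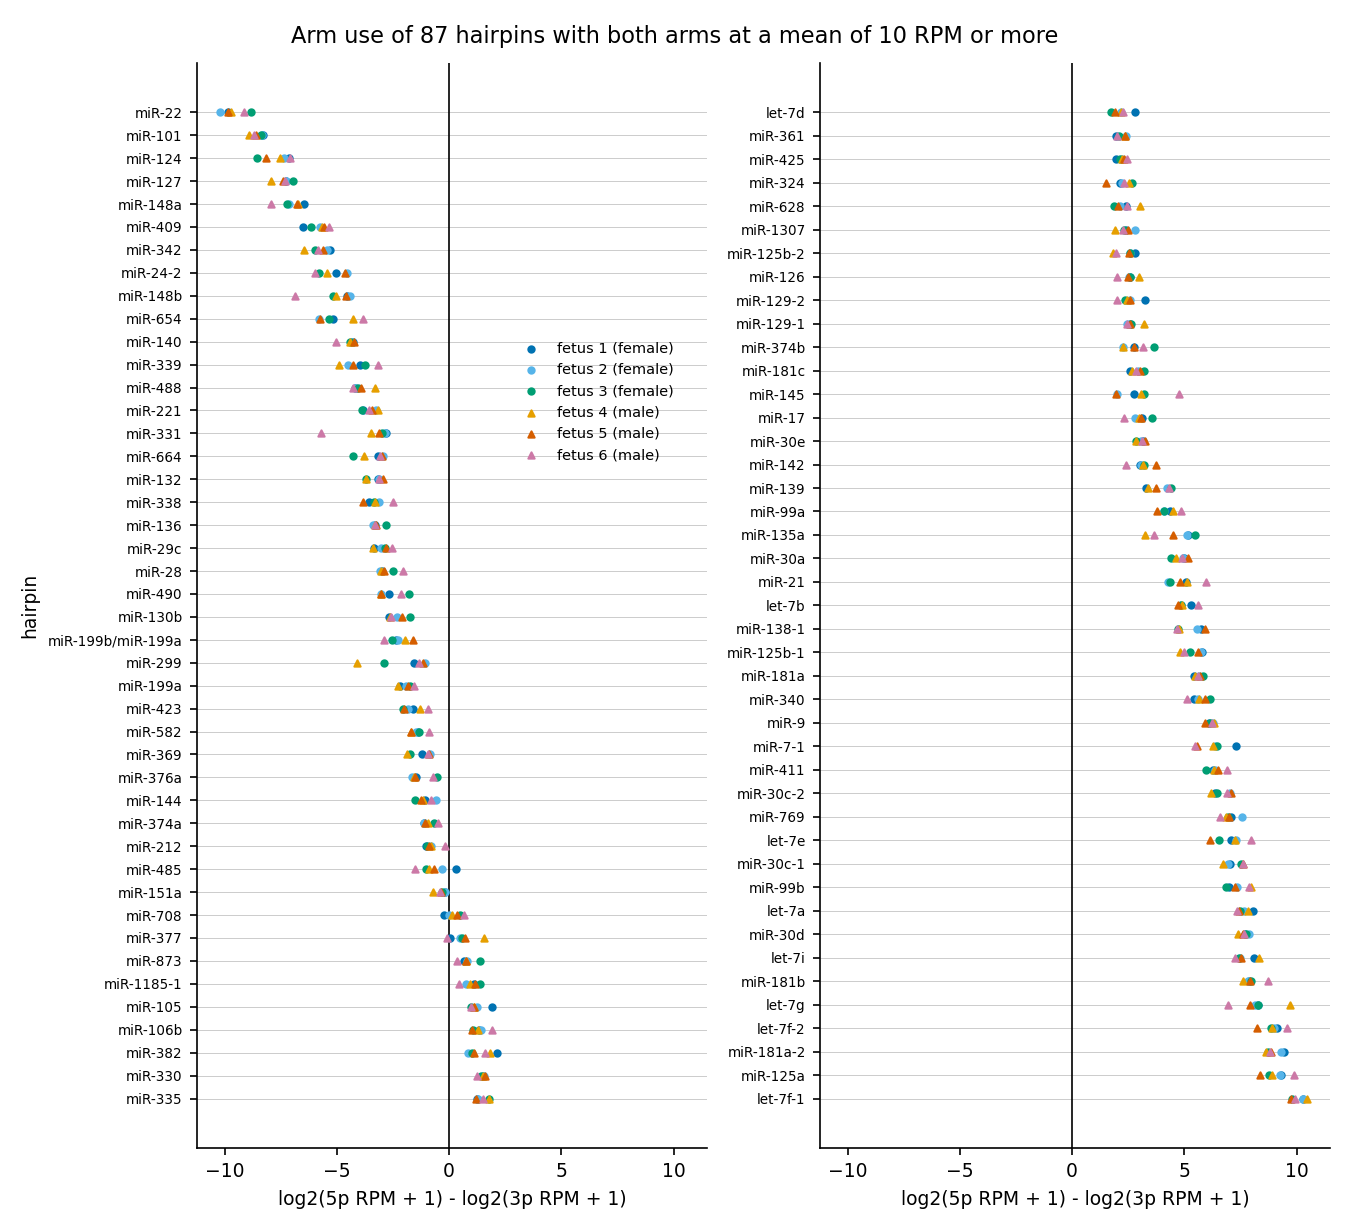
Log2 ratio of 5p to 3p level (RPM + 1) for 87 hairpins, ordered from the largest 3p excess (upper left) to the largest 5p excess (lower right); each point is 1 control fetus, circles female and triangles male, and the vertical line marks equal arms. Ratios run from miR-22 at a mean of -9.59 to let-7f-1 at 10.08, and the points of miR-485, miR-708 and miR-377 lie on both sides of the line.

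Near-equal arms were few. miR-708 had 140, 178, 176, 208, 213 and 189 RPM of 5p and 163, 179, 126, 192, 165 and 121 RPM of 3p in fetuses 1 to 6, so that 5p was higher in 4 fetuses and the arms overlapped. Its log2 ratio of 0.23 ± 0.15 (SE, n = 6; limma adjusted p = 0.151) did not pass. miR-151a, an intronic miRNA of the focal adhesion kinase gene PTK2 in human, had 1431 ± 159 RPM of 5p and 1842 ± 207 RPM of 3p, and 3p was higher in all 6 fetuses by 0.36 on the log2 scale (adjusted p = 0.0195). The name miR-151b had almost the same level as its 5p arm (1429 ± 159 RPM), so reads of these names may be shared.

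The other hairpins nearest to equal use were miR-377 (0.54), miR-485 (-0.69), miR-873 (0.78) and miR-212 (-0.79), where a positive value means more 5p. miR-377 and miR-485 are both from the DLK1-DIO3 region, and their higher arm was not the same in every fetus: 5p was higher in 5 of 6 for miR-377 and in 1 of 6 for miR-485. Without fetus 4 the ratio of miR-377 was 0.34 with an adjusted p of 0.0646. Of the 12 hairpins of that region in the test, 4 had more 5p and 8 more 3p, with a median log2 ratio of -1.25, against 47 and 27 in the other 75 and a median of 1.47 over all 87. The region therefore spans miR-127 at -7.36 and miR-411 at 6.40, both with the same major arm in all 6 fetuses.

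Paralogs mostly kept the same arm. Of 9 name families with at least 2 hairpins tested, 8 were on one side throughout: let-7 (8 hairpins), miR-30 (5), miR-181 (4), miR-125 (3), miR-99 (2) and miR-129 (2) with more 5p, and miR-148 (2) and miR-199 (2) with more 3p. Some of these hairpins share an arm name and so share values. The exception was miR-374, where miR-374a had more 3p (-0.91) and miR-374b more 5p (2.80). Within a family the size still varied widely, from 2.17 for let-7d to 10.08 for let-7f-1 and from 2.87 for miR-181c to 8.96 for miR-181a-2. As minor arms, miR-181c-3p averaged 1459 ± 385 RPM and miR-125b-2-3p 1496 ± 323 RPM.

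The arms of a hairpin tended to vary together between fetuses. The median SD of the log2 ratio was 0.38, against 0.48 if both arms varied independently with their own SD and 0.25 from counting alone, and it was under the independent value in 65 of 87. The steadiest were miR-330 (SD 0.13), miR-9 (0.14), miR-181a (0.14) and miR-30e (0.17). The least steady were miR-299 (1.23), miR-331 (1.12), miR-145 (1.02) and miR-148b (0.91). For miR-299 the 5p arm was at 7.14 RPM in fetus 4 and at 21.6 to 55.7 RPM in the others, while the 3p arm was at 87.3 to 167 RPM. For miR-331 the ratio of fetus 6 was -5.72 against -3.47 to -2.82 in the rest, with 5.85 RPM of 5p, which is 3 reads. For miR-145 the ratio of fetus 6 was 4.74 against 1.97 to 3.21 in the rest, with 7.8 RPM of 3p, a few reads. Each of these wide spreads fell when 1 fetus was left out. Without fetus 6 the SD was 0.26 for miR-331 and 0.33 for miR-148b, below the median of 0.38 over all hairpins. It was 0.58 for miR-145 without fetus 6 and 0.75 for miR-299 without fetus 4, both still above that median. Among the steadiest, the SD was 0.06 for miR-330 without fetus 6 and 0.09 for miR-9 without fetus 5.

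Sex was the one difference between control fetuses that the labels gave, and it was tested with limma on log2(RPM + 1) of the 480 names with a mean of at least 1 RPM, 3 females against 3 males. No name passed an adjusted p of 0.05 (0% of those tested, smallest adjusted p = 0.868), and at an unadjusted p under 0.05 there were 9 names higher in females and 9 higher in males. edgeR on whole reads called 0 as well, with 20 at an unadjusted p under 0.05, and DESeq2 called 0, with 14. The smallest p belonged to miR-135a-3p, at 5.20 ± 2.20 RPM in females and 18.6 ± 8.11 RPM in males (SD, n = 3 per sex; log2 difference of females minus males -1.62 ± 0.44 (SE), limma adjusted p = 0.868). Next were miR-10b-5p (1393 ± 614 and 3968 ± 2593 RPM; -1.44 ± 0.43) and miR-10a-5p (36.1 ± 36.1 and 381 ± 401 RPM; -2.93 ± 0.90), with the same adjusted p. All 3 males lay above all females for miR-135a-3p and miR-10b-5p, and 2 of 3 did for miR-10a-5p. The deeper libraries were mostly female, with 1363856 to 1898763 counted reads in females and 513029 to 1494844 in males, and the part of depth in these differences was not tested. Without fetus 5, miR-10a-5p alone passed (-4.17, adjusted p = 0.0038).

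Arm use did not differ by sex past the threshold in any of the 87 hairpins (0% of those tested, smallest adjusted p = 0.137; 3 at an unadjusted p under 0.05). The nearest was miR-135a, a 5p hairpin known from the nervous system, with a log2 ratio of 5.25 ± 0.18 in females and 3.80 ± 0.65 in males (SD, n = 3 per sex; difference 1.45 ± 0.35 (SE), limma adjusted p = 0.137). Then came miR-7-1, with 6.69 ± 0.52 and 5.78 ± 0.45, and miR-331, with -2.89 ± 0.10 and -4.10 ± 1.42, both at a limma adjusted p of 0.969. Without fetus 5, miR-135a passed (1.80, adjusted p = 0.0111). Its 3p arm averaged 5.20 RPM in females and 18.6 RPM in males, so the hairpin reached the limit of 10 RPM only through the males. The ratio also repeats the difference in level of miR-135a-3p given above, so it is no separate support for a sex difference. The share of the 10 most abundant was 60.3 ± 3.85% in females and 59.1 ± 1.13% in males (exact permutation test, two-sided, p = 0.9). Summed reads (exact permutation p = 0.2) and the number of names with a read (558.0 and 521.0, exact permutation p = 0.2) did not pass either; adjusted over these 3 measures the p-values were 0.9, 0.3 and 0.3, and 3 against 3 fetuses cannot go below 0.1.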

How the data were processed

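Per the labels' protocols, total RNA was column-purified and small RNA libraries were made with an Illumina kit. An aligner and a counting tool were not given in the sources used here. In their processing notes the submitters list hg18 without saying what it was used for. The authors deposited RPM, reads per 1000000 counted reads per the file headers and the column sums, for 2234 entries, each a human mature name paired with a precursor. Whole reads could be recovered, since 100% of nonzero values were a whole multiple of that library's step to within 0.0051 RPM.

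For each of 1921 names the precursor entry with most reads in the controls was kept (202 names had several entries, which made 41.2 to 43.2% of reads repeats). Shares are of the kept reads. The names are human ones and were used as deposited for baboon. At 1 RPM or more, 12 names fell into 5 sets with the same values. No 2 libraries agreed within sampling noise (chi-square per degree of freedom at least 34.2 between any pair), so none was taken for a second deposit of another; this does not show that the samples are independent. No label says how the mothers were related, and p-values measure the spread between these fetuses.

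limma 3.58.1 was run in R 4.3.3 on log2(RPM + 1), which understates changes of low miRNAs; edgeR 4.0.16 and DESeq2 1.42.0 on whole reads were alternatives, with another pseudocount, other minimum levels, other scalings, and each fetus left out. The threshold was a Benjamini-Hochberg adjusted p of 0.05. The fits were tested on simulated data. Intervals and read floors cover counting error only, since reads carry no molecular identifiers.

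Members and lists were chosen with earlier results of these data known. The names given are the 20 most abundant, the 8 most and 8 least variable at 100 RPM or more, the hairpins with the 8 largest ratios each way, the 6 nearest to equal and those whose higher arm differed between fetuses, the 3 of smallest p for each sex test, and the 2 leading names of each list; others were chosen after their values were seen. Per-sample columns of the 6 restricted fetuses were not analysed here.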

Additional observations from a re-analysis of the deposited data

Results flagged for a closer look

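Of 105 sets of 6 control values looked at (levels, arm ratios, list shares and concentration measures), 12 had a fetus whose gap to the nearest other exceeded 0.625 of the whole range. Chance gives about 1 in 20 for sets not chosen by their values, which does not apply here: 6 of the 12 are names chosen for their high CV, and the HOX list share repeats 2 of those. Fetus 6 was the one set apart in 9 of them, on levels of 5 names: let-7c at 15015 RPM (next fetus 7061), miR-148b-3p at 2824 RPM (next 1343), miR-331-3p at 361 RPM (next 208), miR-10b-5p at 6908 RPM (next 2991) and miR-10a-5p at 821 RPM (next 286). The share of the HOX cluster list in fetus 6, 1.32% against 0.559% in the next fetus, rests on the last 2 names. Its arm log2 ratios stood apart for miR-181b (8.74, next 7.98), miR-212 (-0.19, next -0.79) and miR-331 (-5.72, next -3.47).

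Fetus 3 was set apart for miR-26a-5p, at 148140 RPM with the next fetus at 77613 RPM. Fetus 1 was set apart for miR-200b-3p, at 7.33 RPM with the next at 1.95 RPM, and for miR-517a-3p, which shares its values with miR-517b-3p, at 0.73 RPM against 0, which is 1 read.

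Of 35 further sets of values given outside the rule for names, 10 met the same limit; several were picked because they stood apart, so this count has no chance level either. In fetus 6 they were miR-137 at 1074 RPM (next 642), miR-138-5p at 1524 RPM (next 1080), miR-18a-5p at 74.1 RPM (next 21.6), miR-504 at 205 RPM (next 88.0), miR-323b-3p at 103 RPM (next 12.5), miR-331-5p on the low side at 5.85 RPM (next 17.4) and the arm log2 ratio of miR-148b at -6.86 (next -5.15). Elsewhere they were miR-7-5p at 4147 RPM in fetus 1 (next 2491), miR-132-5p at 51.2 RPM in fetus 4 (next 109) and the miR-26 family share of 26.3% in fetus 3 (next 13.7%), which rests on miR-26a-5p.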

How the results depend on the processing

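Summing all precursor entries of a name moved the share of the 10 most abundant to 72.2% and the number of names that hold 90% of reads from 51.3 to 36.3 on average, since the same reads are then counted again; ranking by the median or merging names with the same values moved neither beyond its SD. Without single fetuses these were 58.7 to 60.1% and 51 to 52 names. The median CV was 28.8% with a minimum of 1 RPM, 19.7% with 100 RPM, and 20.8 to 24.2% without single fetuses. The number of hairpins tested sets the arm counts: 88 with more 5p and 62 with more 3p at a minimum of 1 RPM, 15 and 4 at 100 RPM, and 49 to 52 and 34 to 35 without single fetuses; edgeR on whole reads gave 51 and 35. Counts for sex were 0 in all settings except without control replicate 5, where 1 name was higher in males and 1 hairpin used more 5p in females, so over single fetuses left out they ran from 0 to 1. No result reversed. Of recomputed levels and spreads of named miRNAs, which have no test, 45 moved beyond their spread and 295 did not; of tested values 277 kept their direction and side of the threshold, 2 gained it and 1 lost it. The SDs of arm ratios without single fetuses were added after seeing the data. Depth limits names under about 10 RPM: 3 reads are 1.58 to 5.85 RPM. No paired analysis was possible because the numbers given to the fetuses come from accession order, and nothing in the labels pairs one fetus with another.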

Other observations

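Among names with a mean below 100 RPM, some also stood apart in fetus 6, all picked after their values were seen. miR-323b-3p, of the DLK1-DIO3 region, was at 103 RPM in fetus 6 and at 6.32 to 12.5 RPM in the other 5, and its CV of 160% was the highest of the 323 names at 10 RPM or more. miR-18a-5p, of the miR-17-92 family, was at 74.1 RPM against 15.4 to 21.6 RPM, and miR-504 at 205 RPM against 43.2 to 88.0 RPM. No shared direction held for their clusters: the DLK1-DIO3 list was lowest in fetus 6 (4.31% of reads), and the miR-17-92 list was at 0.611% there, within the range of the others (0.539% to 0.875%).

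On the low side, miR-132-5p was at 51.2 RPM in fetus 4 against 109 to 144 RPM elsewhere, and its partner arm miR-132-3p was also lowest there, at 672 RPM against 937 to 1632 RPM.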
